A study of Rattus norvegicus with 64 samples.

Results

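Tspan1, Lgals4 and Ly6g6e are 3 genes of epithelial cell surfaces, out of 15715 named genes on the array. They were selected on the measured values themselves, for being among the genes with the largest rises with ASCs at days 7 and 30. Because of this choice, their graft differences at these 2 days are given as a description without a test, and the tests concern days 90 and 180 and the relation to the uroplakin level within groups. The bladders of male Wistar rats were augmented after hemicystectomy with bladder acellular matrix (BAM), a bladder wall from which the cells were removed, or with the same matrix carrying cultured stromal cells from fat (ASCs, named ADSCs in the sample labels) of the third passage. The reconstructed wall was taken at 7, 30, 90 or 180 days, which gives 8 groups of 8 arrays and 64 arrays in all. The rats were syngeneic, and unseeded BAM was the control at each day.

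Tspan1 is a tetraspanin, a protein that crosses the membrane several times and organizes other membrane proteins. Lgals4 (galectin-4) binds sugars of glycoproteins and glycolipids and is best known from the surface of gut epithelium. Ly6g6e belongs to the Ly6 family of small proteins, most of which are anchored at the cell surface, and its own role is little known. Uroplakins form the plaques of the luminal membrane of urothelium and mark its differentiated umbrella cells. Upk1a and Upk1b are themselves tetraspanins, and Upk2 and Upk3a are their partners.

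The sequences before the annotated starts are shown where the reference holds them, to set the windows of genes with a shared rise side by side. They come from RefSeq (GRCr8) for Tspan1 and Lgals4, 2 of the 3 genes. Ly6g6e is named only. Each line gives the 250 bases before the start, on the strand of the gene, with matches of the searched motifs in capitals. Tspan1 lies on the minus strand at chr5:134888731-134888980 and Lgals4 on the plus strand at chr1:93252035-93252284.
Tspan1: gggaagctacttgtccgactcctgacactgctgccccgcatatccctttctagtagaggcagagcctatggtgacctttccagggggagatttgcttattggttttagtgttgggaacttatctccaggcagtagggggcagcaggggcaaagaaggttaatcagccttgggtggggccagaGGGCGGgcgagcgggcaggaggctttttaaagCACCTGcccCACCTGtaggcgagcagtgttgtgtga
Lgals4: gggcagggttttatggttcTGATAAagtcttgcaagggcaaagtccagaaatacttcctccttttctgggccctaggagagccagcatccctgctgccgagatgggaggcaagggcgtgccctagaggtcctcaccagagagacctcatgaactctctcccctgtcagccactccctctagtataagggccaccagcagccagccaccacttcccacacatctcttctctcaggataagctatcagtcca
The motifs searched on both strands were the E-box CACCTG, the AP-1 site TGANTCA, the GATA site TGATAA, the Sp1 site GGGCGG and the TATA box TATAAA. The Tspan1 window held CACCTG 2 times, at bases 36 to 31 and 27 to 22 before the start, and GGGCGG once. The Lgals4 window held TGATAA once, at bases 231 to 226 before the start. Of 33469 promoters of the same length, 15.9% held CACCTG, 30.5% GGGCGG, 7.97% TGATAA, 6.34% TGANTCA and 12.9% TATAAA. No match overlapped another, and none of the spellings searched was found in both windows. Other spellings of these sites were not searched. The GC content of the windows was 56.4% for Tspan1 and 54.8% for Lgals4.

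Levels are processed signals on the log2 scale after subtraction of each array's 75th percentile, so that 0 is the level of a spot brighter than 75% of the gene spots. Tspan1 and Ly6g6e had 1 probe each and Lgals4 had 2. The Tspan1 probe was well above background on 58 of 64 arrays, and the Ly6g6e probe and both Lgals4 probes on 63 each. No member was saturated on any array. The 2 Lgals4 probes had a within-group r of 0.99, and values of Lgals4 are from the brighter one. Gene spots well above background made up 73.3% to 95.6% of an array at days 7 and 30 and 35.5% to 64.6% at days 90 and 180, and the median local background was 42 to 52 and 99 to 365.5. At day 90 the grafts differed in this too. The share was 54.3% to 64.6% and the background 99 to 120 with ASCs, against 35.5% to 58.5% and 321 to 365.5 with BAM. At that day graft and background cannot be told apart. Each group lay on 1 slide and the 2 early and 2 late days were scanned on different dates, so slide and group cannot be told apart. Of the 64 arrays, 3 stood apart from their groups (BAM seeded with ASCs replicate 1 at day 30, BAM replicate 7 at day 7 and BAM replicate 8 at day 90), and values without them are given where they matter. In RNA of whole tissue, fewer epithelial cells and less RNA per cell cannot be told apart.

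Tspan1 was high with ASCs at both early days and low with BAM at day 30. At day 7, its lowest, median and highest level was 1.07, 2.92 and 4.55 with ASCs and -3.11, 0.84 and 3.33 with BAM. The groups overlapped, and 4 of 8 seeded bladders had more Tspan1 than any BAM bladder. At day 30 the levels were 0.17, 2.75 and 4.22 with ASCs and -3.72, -1.23 and 0.27 with BAM. There, 7 of 8 seeded bladders were above all BAM bladders, and the one that was not is the array that stands apart. The mean was 2.79 ± 1.43 (SD, n = 8) with ASCs and 0.67 ± 1.94 with BAM at day 7, and 2.62 ± 1.23 and -1.21 ± 1.30 at day 30. The log2 difference was 2.13 (4.37-fold) and 3.83 (14.2-fold). Without the arrays that stand apart it was 1.59 and 4.18.

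At days 90 and 180 all 4 group means of Tspan1 were below 0. At day 90 the lowest, median and highest level was -4.14, -1.37 and -0.08 with ASCs and -4.07, -1.56 and 3.58 with BAM. The BAM arrays at day 90 were scattered, with 3 at -4.07, -4.01 and -3.99 and 3 at 1.12, 2.61 and 3.58, and their SD was 3.09 against 1.41 with ASCs. The probe was well above background on 5 of 8 arrays in that group and on 7 of 8 in each other group of days 90 and 180. At day 180 the levels were -3.46, -2.26 and 1.93 with ASCs and -3.17, -2.45 and -1.06 with BAM. The groups overlapped at both days. The order of the 8 group means ran from BAM seeded with ASCs at day 7 (2.79) and day 30 (2.62) down through BAM at day 7 (0.67) to BAM at day 180 (-2.35), and only the step from the second to the third place (1.95) was larger than the SD of the 2 groups next to each other (1.63).

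Lgals4 also had its 2 highest group means with ASCs at days 7 and 30. At day 7 its lowest, median and highest level was 1.58, 2.23 and 3.04 with ASCs and -2.08, 0.80 and 2.98 with BAM. All 8 seeded bladders lay above the BAM median, while 1 of 8 exceeded all BAM bladders. At day 30 the levels were -0.11, 2.59 and 5.01 with ASCs and -2.05, -0.12 and 1.84 with BAM, and 6 of 8 seeded bladders exceeded all BAM bladders. The mean was 2.31 ± 0.61 (SD, n = 8) with ASCs and 0.67 ± 1.80 with BAM at day 7, with the wider spread in BAM. The log2 difference was 1.64 (3.11-fold) at day 7 and 2.64 (6.24-fold) at day 30, and 1.24 and 2.86 without the arrays that stand apart.
At day 90 the lowest, median and highest level of Lgals4 was -0.56, 0.41 and 1.01 with ASCs and -4.65, -0.56 and 2.29 with BAM. At day 180 it was -1.48, 0.16 and 2.79 with ASCs and -0.38, -0.06 and 1.73 with BAM. The groups overlapped at both days, and the BAM arrays at day 90 spread over the range of the ASC arrays on both sides. The step from the second group mean (2.31, BAM seeded with ASCs at day 7) to the third (0.67, BAM at day 7) was again the one larger than the SD of its neighbors, 1.64 against 1.35.

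Ly6g6e differed more between the grafts at day 7 than at day 30. At day 7 its lowest, median and highest level was -3.00, 0.63 and 1.18 with ASCs and -4.42, -3.16 and -2.01 with BAM, and 7 of 8 seeded bladders exceeded all BAM bladders. The arrays with ASCs at day 7 formed 2 sets, 5 between 0.61 and 1.18 and 3 between -3.00 and -1.56. At day 30 the levels were -1.84, -1.18 and 1.81 with ASCs and -3.39, -2.25 and -1.44 with BAM, and 4 of 8 seeded bladders exceeded all BAM bladders. The log2 difference was 2.81 (7.00-fold) at day 7 and 1.499 (2.83-fold) at day 30, and 2.91 and 1.45 without the arrays that stand apart.
At day 90 the lowest, median and highest level of Ly6g6e was -2.33, -1.42 and 1.61 with ASCs and -3.26, -1.72 and -1.31 with BAM. At day 180 it was -3.34, -1.80 and 0.97 with ASCs and -2.07, -1.34 and 1.35 with BAM. The BAM groups stood in the order of days, from -3.09 at day 7 to -1.13 at day 180, while with ASCs the means went from -0.28 to -1.65. No step between neighbors in the order of the 8 means exceeded their SD.

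**Figure D1:**
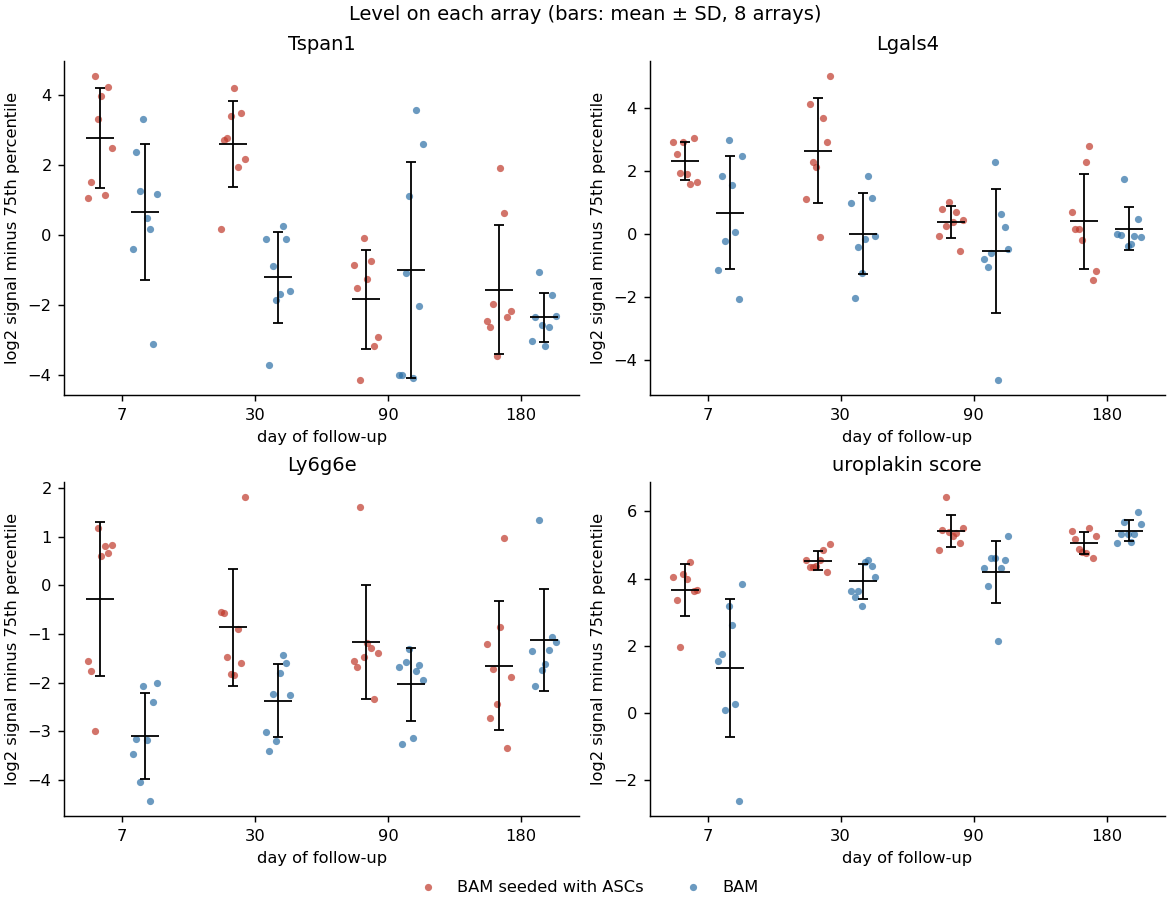
Level of Tspan1, Lgals4, Ly6g6e and the uroplakin score (y axis, log2 signal relative to the 75th percentile on that array) on each of 64 arrays by day (x axis), with points for arrays and bars for the mean and SD of 8 arrays. Tspan1 and Lgals4 with ASCs are high at days 7 and 30 and low afterwards, while the uroplakin score is highest at days 90 and 180.

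Among 15715 genes ordered by the mean of the rises at days 7 and 30, Tspan1 was in place 4, Ly6g6e in place 28 and Lgals4 in place 29. The genes next to Tspan1 were Klk1c9, a glandular kallikrein (3.20, against 2.98 for Tspan1), and Sbp, a secretory protein of the prostate (2.80). Next to Ly6g6e (2.15) and Lgals4 (2.14) stood Duoxa2, the maturation factor of an oxidase (2.17), and Svs4, a protein of the seminal vesicle (2.13). Of 11 genes of prostate and seminal vesicle on the array, 1 was well above background on at least 48 arrays. Their mean level on an array ranged from -7.34 to -0.70 with ASCs and from -6.73 to -0.93 with BAM at day 7, and from -7.06 to -3.31 and from -6.98 to -6.08 at day 30. It had a within-group r of 0.35 with Tspan1, 0.01 with Lgals4 and -0.04 with Ly6g6e. Its part in the rise of Tspan1 was not tested.

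At days 90 and 180, which did not enter the selection, the question was whether the difference between the grafts was still there. At day 90 the log2 difference of Tspan1 was -0.84 (95% interval -2.56 to 0.88, limma adjusted p = 0.433), that of Lgals4 0.93 (-0.42 to 2.27, adjusted p = 0.261) and that of Ly6g6e 0.88 (-0.23 to 1.98, adjusted p = 0.194). At day 180 they were 0.80 (-0.92 to 2.52, adjusted p = 0.852), 0.24 (-1.10 to 1.58, adjusted p = 0.999) and -0.52 (-1.63 to 0.58, adjusted p = 0.844). None of the 3 passed the threshold (adjusted p below 0.01 and more than 1.5-fold) at either day, with 0 at an unadjusted p below 0.05 and 0 in the 2-way analysis of variance, while 12.5% of 30367 probes passed at day 90 and 2.44% at day 180. The intervals still hold differences of more than 2-fold. Leaving out 1 replicate at a time moved Tspan1 at day 90 between -1.28 (without BAM replicate 5) and -0.19 (without BAM replicate 6), and the other differences also moved by more than 1.5 times, without passing.

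From day 90 to day 180 the 3 genes were compared within each graft. With ASCs the log2 difference was 0.27 for Tspan1, 0.03 for Lgals4 and -0.49 for Ly6g6e, and with BAM it was -1.37, 0.72 and 0.91. None passed (limma adjusted p between 0.237 and 0.976, 0 at an unadjusted p below 0.05, 0 in the 2-way analysis of variance), against 4.14% of all probes with ASCs and 9.39% with BAM. The difference between the grafts in this change was 1.64 (adjusted p = 0.299) for Tspan1, -0.69 (0.587) for Lgals4 and -1.40 (0.172) for Ly6g6e. It passed for 9.79% of all probes and for 0 of the 3.

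The uroplakin level of an array was the mean of Upk1a, Upk1b, Upk2 and Upk3a, the 4 of 5 listed uroplakins with a named probe. All 4 passed as higher with ASCs at day 7, by 1.79 (Upk1b) to 2.87 (Upk2) on the log2 scale, where 7.73% of all probes passed. At day 30 the differences were 0.42 to 0.74, at day 90 0.97 to 1.43 and at day 180 -0.91 to 0.11, and 0 of 4 passed at each of these days (1.67% of all probes passed at day 30). The dimmer second probe of Upk1b did pass at day 90 (1.13, limma adjusted p = 0.00926). As a score with the arrays that stand apart included, the uroplakins were 2.33 higher with ASCs at day 7 and 0.61 at day 30. They were not tested there, since these contrasts chose the members. They were higher at day 90 (difference 1.22, exact permutation p = 0.000466, adjusted p = 0.0028 over 12 comparisons) and lower at day 180 (-0.37, exact permutation p = 0.0407, adjusted p = 0.0489). The score of the second Upk1b probe and Upk2, saturated on 1 array, differed by 1.05 at day 90 (exact permutation p = 0.0392, adjusted p = 0.0489) and by -0.81 at day 180 (exact permutation p = 0.0042, adjusted p = 0.0126), where 6 of 8 seeded bladders lay below all BAM bladders. The Upk3a probe was saturated on 39 arrays, among them all 8 BAM arrays at day 180, that of Upk1b on 18, that of Upk1a on 12 and that of Upk2 on 1. At day 90 Upk3a was saturated on 7 of 8 arrays of each graft, yet its mean was 5.93 with ASCs and 4.51 with BAM. There Upk1b was saturated on 3 of 8 arrays with ASCs and 5 of 8 with BAM, and Upk1a on 2 and 4. The part of saturation in the difference of 1.22 was not tested. The mean score went from 3.66 to 4.53, 5.42 and 5.06 over the 4 days with ASCs, and from 1.33 to 3.92, 4.20 and 5.43 with BAM.

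At day 7 the uroplakin score differed by 2.33, the mean of 19 epithelial markers by 1.79 and the members by 2.13 (Tspan1), 1.64 (Lgals4) and 2.81 (Ly6g6e). These differences include BAM replicate 7, which stands apart. It was the lowest of its group in the uroplakin score (-2.62) and in the epithelial mean (-3.44). At day 30 the uroplakin score differed by 0.61, the epithelial mean by 1.36 and the members by 3.83, 2.64 and 1.499, so that Ly6g6e was close to the epithelial mean. The groups behind the 0.61 were unequally saturated. With ASCs Upk3a was saturated on 7 of 8 arrays and Upk1b on 5 of 8, against 0 of 8 with BAM. The part of saturation in the 0.61 was not tested. The second Upk1b probe with Upk2 gave 0.72. Tspan1 minus the uroplakin score was higher on 7 of 8 arrays with ASCs than on every BAM array at day 30, and on 1 of 8 at day 7. For Lgals4 and Ly6g6e it was 6 of 8 at day 30 and 0 of 8 at day 7. Without BAM replicate 7 of day 7, which stands apart, Ly6g6e minus the score was above every BAM array on 5 of 8 arrays with ASCs at day 7, and its difference was 1.14 against 0.48 with that array. For Tspan1 and Lgals4 minus the score the difference was -0.17 and -0.52 without that array, against -0.20 and -0.69 with it. These values of days 7 and 30 are descriptions, since the members were selected on them.

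**Figure D2:**
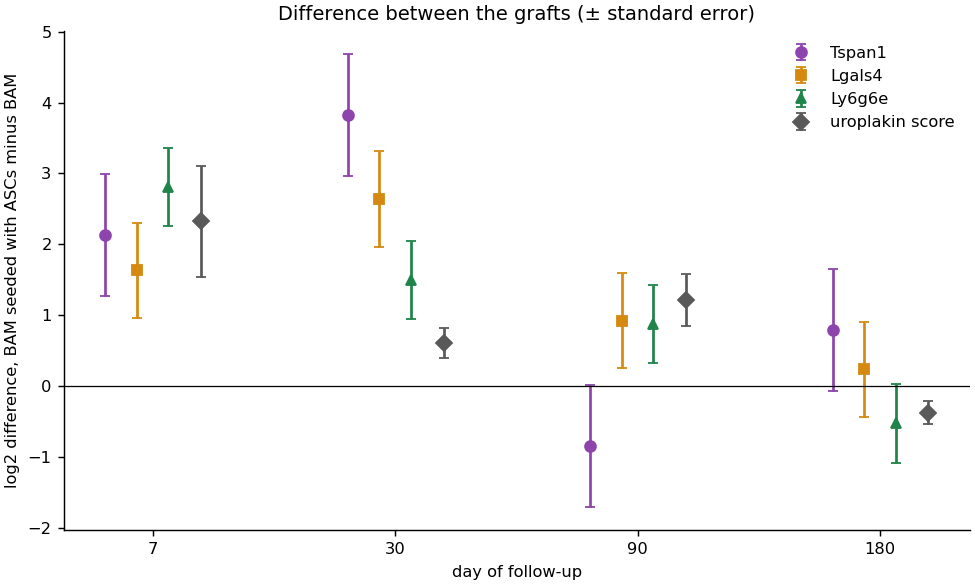
Log2 difference between BAM seeded with ASCs and BAM (y axis) by day (x axis) for the 3 genes and the uroplakin score, with bars for the standard error. At day 30 Tspan1 (3.83) and Lgals4 (2.64) lie above the uroplakin score (0.61), and at days 90 and 180 none of the 3 genes passed the test.

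At days 90 and 180 the member minus the uroplakin score was tested with exact permutation over 12870 splits of 8 against 8 arrays, two-sided, with adjustment over 6 tests. Tspan1 minus the score was lower with ASCs than with BAM by 2.06 at day 90 (difference -2.06, exact p = 0.0866, adjusted p = 0.262) and higher by 1.17 at day 180 (exact p = 0.0872, adjusted p = 0.262). For Lgals4 the differences were -0.29 (exact p = 0.599, adjusted p = 0.719) and 0.61 (exact p = 0.284, adjusted p = 0.528). For Ly6g6e they were -0.34 (exact p = 0.352, adjusted p = 0.528) and -0.15 (exact p = 0.777, adjusted p = 0.777). None passed at an adjusted p below 0.05, where the smallest exact p possible is 0.000155. Saturated uroplakin probes entered the score at both days.

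Whether the members follow the uroplakin level from array to array was tested on deviations from the group means, since the groups form clusters and a pooled correlation would mix them with the arrays. Over 64 arrays, Lgals4 had a Pearson r of 0.58 with the uroplakin score (permutation p = 2e-05, adjusted p = 3e-05) and a Spearman rho of 0.44 (p = 0.00069 by permutation). Ly6g6e had an r of 0.44 (permutation p = 1e-05, the smallest that 100000 permutations can give, adjusted p = 3e-05) and a rho of 0.60 (permutation p = 1e-05). Tspan1 had an r of 0.33 (permutation p = 0.027, adjusted p = 0.027), but its rho of 0.18 did not pass (permutation p = 0.194).

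For Lgals4 and Ly6g6e the relation held without the 2 arrays farthest in uroplakin level (r = 0.53 and 0.64) and without the 3 arrays that stand apart (0.56 and 0.65). For Tspan1 it rested on these arrays, with r = 0.21 without the 2 farthest (permutation p = 0.201), 0.14 without the 3 that stand apart (permutation p = 0.379) and 0.17 without BAM at day 7 (permutation p = 0.382). Among 30252 probes without a missing value, 4.55% had an r with the score as high as Tspan1, 2.59% as high as Ly6g6e and 1.25% as high as Lgals4, and the median probe had -0.05.

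Within single groups of 8 arrays, r with the uroplakin score was above 0 in 8 of 8 groups for Lgals4 (0.10 to 0.87) and for Ly6g6e (0.34 to 0.92), and in 5 of 8 for Tspan1 (-0.58 to 0.83). These signs rested in part on few arrays. Without the 2 arrays of each group farthest from its median uroplakin score, r was above 0 in 6 of 8 groups for Lgals4, 7 of 8 for Ly6g6e and 6 of 8 for Tspan1. Lgals4 then turned from 0.36 to -0.76 in BAM seeded with ASCs at day 30 and from 0.37 to -0.38 at day 180, and Ly6g6e went from 0.62 to -0.01 at day 180. For Tspan1, r was above 0 in BAM at all 4 days with and without these arrays. In BAM seeded with ASCs it went from -0.53 to 0.16 at day 7, from -0.38 to -0.35 at day 30, from -0.58 to 0.31 at day 90 and from 0.08 to -0.39 at day 180. After adjustment over the 24 values, 0 passed at an adjusted exact permutation p below 0.05, and 9 of 24 had an unadjusted exact p below 0.05.

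**Figure D3:**
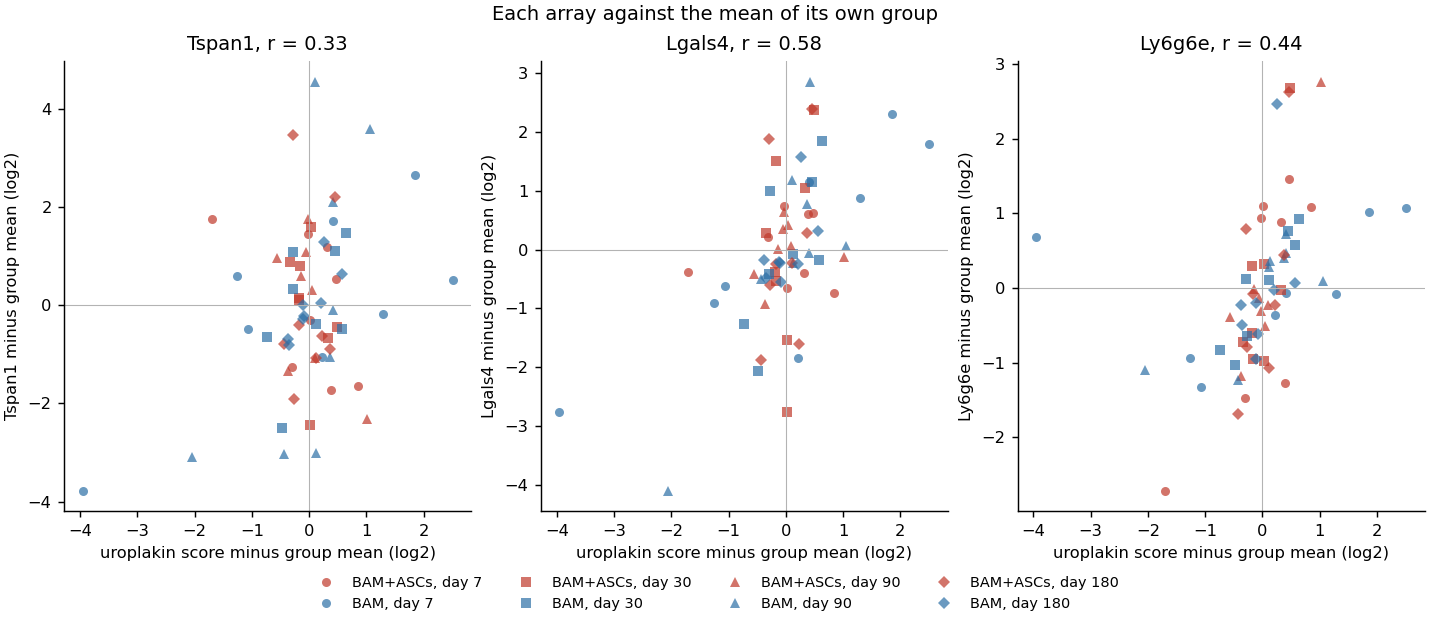
Deviation of each member from its group mean (y axis, log2) against the deviation of the uroplakin score (x axis, log2), with 1 point for each of 64 arrays, color for graft and shape for day. Lgals4 (r = 0.58) and Ly6g6e (r = 0.44) slope upward, with BAM replicate 7 of day 7 at the far left off the trend of Ly6g6e, and r for Tspan1 (0.33) is 0.21 without the 2 arrays farthest from the median uroplakin deviation.

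Across the group means the relation was another one. Over the 8 means, r with the uroplakin score was -0.46 for Tspan1, -0.12 for Lgals4 and 0.61 for Ly6g6e, given as a description with slide and scan date inside it. From day 30 to day 90 with ASCs, Tspan1 went down by 4.45 and Lgals4 by 2.27 on the log2 scale while the uroplakin score went up by 0.88, and these days were scanned on different dates. The mean of 19 epithelial markers was 1.96 at day 30 and 1.53 at day 90 with ASCs.

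The members followed other epithelial genes in different ways. Of the 19 epithelial markers on the array, all had a positive within-group r with Lgals4 (median 0.75), all with Ly6g6e (median 0.45) and 18 with Tspan1 (median 0.48). Lgals4 was nearest to Cdh1 (E-cadherin, the adhesion protein of epithelial junctions) among them, with r = 0.85. Tspan1 was nearest to Cldn3, a claudin of tight junctions, with r = 0.92. Cldn3 was well above background on 40 arrays and was 4.58 higher with ASCs at day 30. It was the 1 epithelial marker of 19 to pass at that day, against 14 of 19 at day 7 and 0 at days 90 and 180. Of all probes, 1.67% passed at day 30, 7.73% at day 7, 12.5% at day 90 and 2.44% at day 180. The mean of the 19 markers was nevertheless 1.36 higher with ASCs at day 30, with 8 of 8 seeded bladders above all BAM bladders. For Krt20, the keratin of umbrella cells, r was 0.54 with Ly6g6e, 0.15 with Lgals4 and -0.03 with Tspan1, and the differences between these values were not tested.

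**Figure D4:**
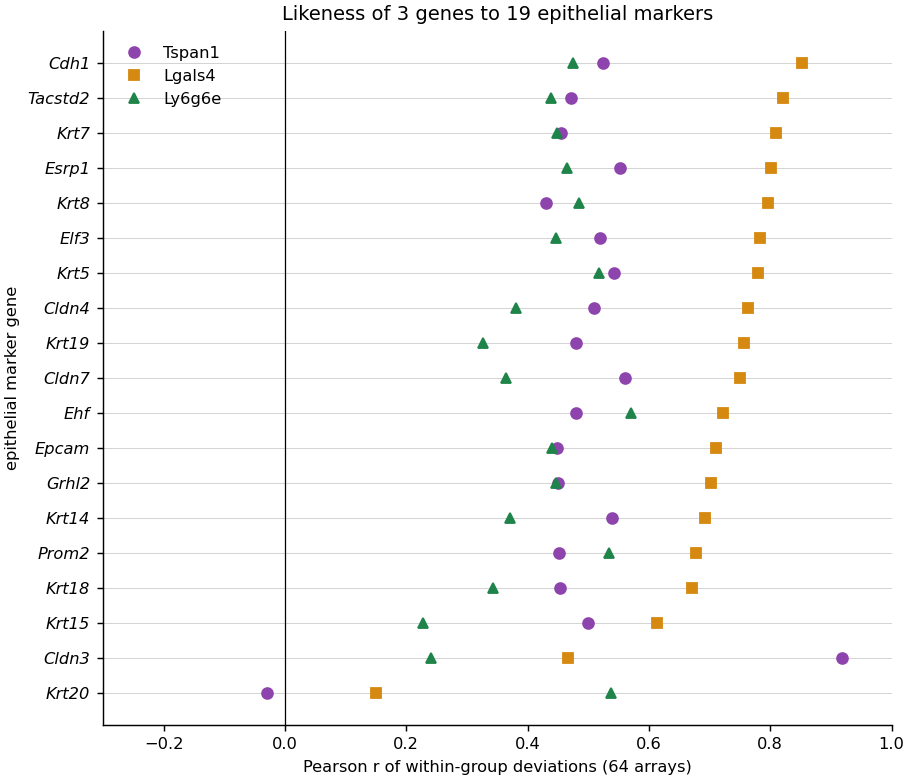
Pearson r of within-group deviations over 64 arrays (x axis) between each of the 3 genes and 19 epithelial markers (y axis). Lgals4 lies to the right for most markers, Tspan1 reaches 0.92 with Cldn3 and is near 0 with Krt20, and Ly6g6e is at 0.54 with Krt20.

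Among 9030 named genes well above background on at least 48 arrays, the 5 most like Tspan1 by within-group r were Prom1 (prominin-1, a protein of membrane protrusions, 0.82), Cd24 (a glycoprotein of epithelial and immature cells, 0.75), Padi4 (0.67), Lratd1 (0.67) and Phlda2 (0.64). Those most like Lgals4 were Cysrt1 (0.90), Lypd3 (a Ly6 family protein of stratified epithelium, 0.90), Jup (plakoglobin of desmosomes, 0.89), Crabp2 (a binding protein of retinoic acid, 0.89) and Pkp3 (plakophilin-3 of desmosomes, 0.88). Those most like Ly6g6e were Bcas1 (0.82), Car5b (a mitochondrial carbonic anhydrase, 0.79), Tctn2 (0.78), Capns2 (0.75) and Abhd12 (0.75). No gene stood in more than 1 of the 3 lists of 5. Tspan1 and Lgals4 had a within-group r of 0.57 with each other, Lgals4 and Ly6g6e 0.51, and Tspan1 and Ly6g6e 0.18.

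Other genes of the same families were counted over whole lists. The list of tetraspanins did not hold Upk1a and Upk1b, which were counted with the uroplakins. Of its 23 other genes, 2 were higher and 1 lower at day 7, 3 were higher at day 30 and 3 at day 90. At day 180, 0 passed. Beside these counts, 7.73%, 1.67%, 12.5% and 2.44% of all probes passed. The medians were 0.13 at day 90 and -0.03 at day 180, against -0.27 and 0.06 over all probes. One of those at day 30, Tspan33, was well above background on 3 of 8 seeded and 0 of 8 BAM arrays. Those of day 90 were Tspan14 (1.095), Tspan12 (0.94) and Tspan13 (0.70). Tspan8, a tetraspanin of epithelia, rose at days 7 and 30 (1.36 and 1.44), with a within-group r of 0.88 with Lgals4 and 0.64 with Tspan1.
Of 8 other galectins, 0 passed at days 7, 30 and 180. The median difference of the list was -0.11 at day 7 and -0.18 at day 30. Lgals7 did not pass, yet like Lgals4 it was higher with ASCs at both early days. Its mean was 1.71 with ASCs and -0.53 with BAM at day 7, and 2.03 and -1.19 at day 30. Lgals3, which macrophages and epithelia make, was higher at day 90 (1.05, limma adjusted p = 1.35e-07). Its mean was 5.81 with ASCs and 4.77 with BAM there, and 5.45 to 5.68 in the other groups. Upk3a, saturated on 7 of 8 BAM arrays at day 90, had a mean of 4.51 there, and the part of saturation in Lgals3 was not tested. Lgals12 passed as lower at day 90 but was not well above background on any array of either group. Of 16 other Ly6 family genes, 1 was lower at day 7 and 0 passed at day 30, with median differences of -0.25 and 0.16. Ly6d, which did not pass, was also higher with ASCs at both days. Its mean was -0.61 with ASCs and -2.71 with BAM at day 7, and 0.77 and -1.88 at day 30. Ly6g5c and Lypd2 were lower at day 90 (-0.93 and -0.88) and higher at day 180 (0.70 and 1.24).

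Markers of other epithelia were given for the whole lists. Of 13 gut epithelium genes on the array, 5 were well above background on at least 48 arrays, Fabp1 on 4, Slc26a3 on 2 and Chga on 3. Guca2a, a gut peptide, was higher at day 90 (0.83, but detected in 7 of 8 seeded bladders and 1 of 8 with BAM) and Gpa33 at day 30 (0.90). Of all probes, 12.5% passed at day 90 and 1.67% at day 30. The mean level of the list, which holds Krt20 and the genes seldom above background too, had a within-group r of 0.06 with Lgals4. For the 5 genes above background on at least 48 arrays, r with Lgals4 was 0.45 (Gpa33), 0.43 (Cdh17), 0.16 (Guca2a), 0.15 (Krt20) and -0.18 (Anpep). Of 10 genes of squamous epithelium, 4 were well above background on at least 48 arrays. The mean of all 10 had an r of 0.72 with Lgals4, 0.54 with Tspan1 and 0.49 with Ly6g6e. Sprr1a, a precursor of the cornified envelope, was 2.56 higher with ASCs at day 7, the 1 gene of this list to pass there, beside 7.73% of all probes. The mean of the squamous list ranged from -3.91 to -0.97 with ASCs and from -4.81 to -2.20 with BAM at day 30. The part of these cells in the levels of the 3 genes was not tested.
Of 11 smooth muscle genes, Myh11 (1.09), Actg2 (0.998) and Tagln (0.996), all of the contractile apparatus, were higher with ASCs at day 90. In this list 0 passed at the other days. In BAM at day 90 the means of Myh11, Actg2 and Tagln were 4.63, 5.05 and 4.85. Upk3a, saturated on 7 of 8 arrays there, had a mean of 4.51. Of 12 genes of fibroblasts and matrix, Col1a2 (1.02), Dcn (0.76) and Col1a1 (0.75) were higher at day 90, at 4.87, 4.69 and 4.77 in BAM. Pdgfrb was lower at day 7 (-0.69) and Vim at day 30 (-0.92). Of 14 leukocyte genes, Lyz2 was higher (0.81, at 4.70 in BAM) and Cd4 lower (-1.01) at day 90, and of 7 adipocyte genes Pparg was higher at day 7 (0.93). Beside these counts, 7.73%, 1.67%, 12.5% and 2.44% of all probes passed at days 7, 30, 90 and 180. The part of saturation in the differences of day 90 was not tested. Within groups, the mean of the fibroblast list had an r of -0.25 with Tspan1, -0.33 with Lgals4 and -0.46 with Ly6g6e. That of smooth muscle lay between -0.11 and -0.01 for the 3 genes.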

How the data were processed

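Total RNA of the reconstructed bladder wall was hybridized to 64 one-color Agilent rat arrays, with 8 arrays in each of 8 groups taken from the sample labels. The labels call the arrays biological replicates and give more rats than arrays in a group. Scanner tables of Feature Extraction 12.0.1.1 (Agilent) were deposited by the authors, in which the processed signal is a background-corrected intensity on a linear scale, and a series matrix with the same intensity values, of which 3 columns differed and 1 was partly empty. The matrix served as an alternative.

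Processed signals of 58717 gene spots (30367 probes) were converted to log2, from which the array's own 75th percentile was subtracted. Control and outlier spots were left out and spots of a probe averaged. RefSeq accessions of the array files were matched to symbols of assembly GRCr8 for 15715 genes, and the brightest probe stood for a gene. A model of 8 group means was fitted to the 64 arrays (R 4.3.3, limma 3.58.1), with Benjamini-Hochberg adjustment over all probes. Permutation tests used Python 3.11.15, numpy 2.4.6 and scipy 1.17.1. The precision is limited by the number of arrays, and p-values measure the spread between arrays. The scripts were tested on simulated data.

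The members, gene lists and tests were chosen with earlier results of these data known. Named genes were the 3 members, the uroplakins, the 5 genes most like each member, list genes that passed at day 90 or 180 (at most 4 a list) and the neighbors in the order of rises. Cldn3, Cdh1, Krt20, Tspan8, Lgals7, Ly6d, Sprr1a, Gpa33, Cdh17, Anpep, Pdgfrb, Vim and Pparg were named after their values were seen. Alternatives were normexp correction with an offset of 50, quantile normalization, another percentile, the matrix, outlier spots kept, dim probes left out, single days, analysis of variance, the replicate number as a block, other scores and leaving out arrays.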

Additional observations from a re-analysis of the deposited data

Results flagged for a closer look

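Of 24 sets of 8 arrays (3 genes in 8 groups), 4 held an array whose gap to the nearest other passed Dixon's critical value, and about 1 in 20 such sets would be expected to by chance. Lgals4 was 1.73 in BAM replicate 3 at day 180, where the other 7 arrays lay between -0.38 and 0.48. Ly6g6e was 1.35 on the same array, against -2.07 to -1.07 on the others, and the uroplakin score there was 5.68 against a group median of 5.33. Ly6g6e was also far above its group in BAM seeded with ASCs replicate 8 at day 30 (1.81, others -1.84 to -0.55, uroplakin score 5.02 against a median of 4.46) and in BAM seeded with ASCs replicate 3 at day 90 (1.61, others -2.33 to -1.18, uroplakin score 6.43 against a median of 5.37). All 4 values were high ones, and on each of these 3 arrays the uroplakin score was above the median of its group.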

How the results depend on the processing

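The log2 differences at days 90 and 180 did not pass under any alternative run. Leaving out each replicate in turn moved Lgals4 at day 180 between -0.10 and 0.51, below 0 without BAM seeded with ASCs replicate 5 (-0.03) or 6 (-0.10). It moved Lgals4 at day 90 between 0.34 and 1.33 (BAM replicates 5 and 4 left out), Ly6g6e at day 90 from 0.48 (without BAM seeded with ASCs replicate 3) to 1.05, Tspan1 at day 180 from 0.30 (without BAM seeded with ASCs replicate 5) to 1.07, and Ly6g6e at day 180 from -0.90 (without BAM seeded with ASCs replicate 6) to -0.17 (without BAM replicate 3). Tspan1 could not be fitted without dim probes at either day. With the replicate block the differences were the same, and within-group r was 0.33 for Tspan1, 0.59 for Lgals4 and 0.43 for Ly6g6e, with no call changed. The replicate numbers did not clearly pair the arrays (2 to 4 of 8 pairs a day with a correlation over 0.1). At day 30 the median of these correlations was 0.13 and the highest 0.49. There 3 arrays were nearest to their own number, against 0 at days 7 and 180 and 1 at day 90. The r of Tspan1 no longer passed with days 7 and 30 (0.39) or 90 and 180 (0.35) alone. These values were not below the 0.33 of all arrays, but fewer arrays entered. Without the 2 farthest arrays r was lower (0.21) and did not pass. The same held for settings chosen after the data were seen. These were the dimmer Upk1b probe with Upk2 (0.28), no BAM at day 7 (0.17) and none of the 3 arrays that stand apart (0.14).

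For Tspan1 minus the uroplakin score, the unadjusted exact p fell below 0.05 with normexp correction (-1.996 at day 90, 1.13 at day 180), with the epithelial marker score at day 180 (1.02) and with the dimmer Upk1b probe and Upk2 at day 180 (1.61). Leaving out single replicates gave -2.51 to -1.43 at day 90 and 0.63 to 1.40 at day 180. The unadjusted exact p was then below 0.05 at day 90 without BAM replicate 1. At day 180 it was so without BAM seeded with ASCs replicate 1, 2 or 4 or BAM replicate 3. For Lgals4 at day 90 the sign turned with quantile normalization (0.20) and the epithelial score (0.31), and single replicates gave -0.58 to 0.056, above 0 without BAM replicate 4. For Lgals4 at day 180 it was 1.05 with the dimmer Upk1b probe and Upk2 (exact permutation p = 0.057), and single replicates gave 0.30 to 0.87. For Ly6g6e at day 90 the sign turned with quantile normalization (0.17) and the epithelial score (0.26), and single replicates gave -0.59 to -0.20. Without BAM seeded with ASCs replicate 3 the unadjusted exact p was 0.0443. For Ly6g6e at day 180 the sign turned with normexp correction (0.12) and the dimmer Upk1b probe and Upk2 (0.29). Single replicates gave -0.46 to 0.16, above 0 without BAM seeded with ASCs replicate 2 or 7 or BAM replicate 3. Lgals4 from day 90 to 180 with ASCs turned with quantile normalization (-0.017) and the percentile over detected probes (-0.063). The count of epithelial markers higher at day 30 was 3 with normexp correction against 1. The cause was not tested. Across the scalings run, the member differences at each day kept their sign. Saturation of the uroplakin probes and the lower share of spots above background at days 90 and 180 limit these values.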
